A study of Mus musculus with 18 samples.

Results

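The genes described here are 32 genes of cholesterol metabolism, listed by name for their place in cholesterol synthesis, uptake and efflux. No measured value enters the list, but it was chosen with earlier results of these data known, so it is not independent of them. They comprise 8 genes of the mevalonate arm, 11 genes of the sterol arm, 4 genes that control the transcription factor SREBP2 or encode it, 6 genes of uptake and intracellular handling and 3 efflux transporters. Each RefSeq row of the deposited table was matched to a mouse gene symbol, older symbols included, and a gene with several rows was read from the one that averaged highest across the 18 libraries. All 32 were found among 24040 genes, and all 32 were among the 10358 genes that reached 1 RPKM (reads per kilobase of transcript, scaled to sequencing depth) in at least 3 libraries and were tested.

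The libraries were made from polyA RNA of whole liver of wild-type C57BL/6J mice, with 3 libraries in each of 6 groups. The groups were HF+CR, HF+Ex and HF on the HF diet and LF+CR, LF+Ex and LF on the LF diet, where HF and LF alone mean no further treatment. The labels give only these abbreviations, and general knowledge reads LF as low fat, HF as high fat, CR as caloric restriction and Ex as exercise. All mice began treatment at 5 weeks of age and were 62 weeks old at collection. The labels give neither the sex of the mice nor whether each library is 1 animal, so each p-value reflects the spread among these libraries, which may be technical. A difference is given as log2(RPKM + 1) of the group named first minus the group named second, ± SE, from limma, and a gene counts as called where its p, adjusted by Benjamini and Hochberg's method across the 10358 genes, was under 0.05. Because 1 RPKM is added, such a difference understates the change of a gene at low RPKM. In whole liver, fewer cells of a type and less RNA per cell cannot be told apart.

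Cholesterol is built from acetyl-CoA through mevalonate and farnesyl diphosphate to squalene, which is closed to lanosterol and then trimmed to cholesterol in the endoplasmic reticulum. When sterols in that membrane are low, SCAP escorts the precursor of SREBP2 to the Golgi, where it is cleaved to an active factor that turns on genes of the pathway, and INSIG proteins hold SCAP back when sterols are plentiful. When sterols are high, oxysterols activate the LXR receptors, which raise efflux transporters. The liver is the main organ that makes, esterifies, exports and excretes cholesterol.

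SREBP2 is known to act at promoters that often also hold CCAAT and GC boxes, so the promoter windows of 4 members were printed. Hmgcs1 has the one member window with the sterol regulatory element as searched, and was called in neither CR comparison described further on. Lss, Cyp51 and Insig1 were taken from the 6 members called in both of these comparisons. Each is a RefSeq window on GRCm38.p6, 300 bases long, with 250 bases before the transcription start and 50 after it, on the strand of the gene. Capitals mark matches, on either strand, to the sterol regulatory element, searched as TCACNCCAC, to the box named after its letters CCAAT, or to the GC box GGGCGG. A box read on the other strand appears as ATTGG for the first of these boxes and as CCGCCC for the GC box. The window of Hmgcs1 lies at chr13:119690101-119690400 on the plus strand, that of Lss at chr10:76531355-76531654 on the plus strand, that of Cyp51 at chr5:4104648-4104947 on the minus strand and that of Insig1 at chr5:28071162-28071461 on the plus strand.
Hmgcs1: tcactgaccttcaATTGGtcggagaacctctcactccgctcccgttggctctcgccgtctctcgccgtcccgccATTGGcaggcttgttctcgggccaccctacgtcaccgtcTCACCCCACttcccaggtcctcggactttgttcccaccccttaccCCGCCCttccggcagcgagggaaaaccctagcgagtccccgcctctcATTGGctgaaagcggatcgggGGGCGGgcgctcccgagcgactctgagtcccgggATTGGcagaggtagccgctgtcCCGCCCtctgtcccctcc
Lss: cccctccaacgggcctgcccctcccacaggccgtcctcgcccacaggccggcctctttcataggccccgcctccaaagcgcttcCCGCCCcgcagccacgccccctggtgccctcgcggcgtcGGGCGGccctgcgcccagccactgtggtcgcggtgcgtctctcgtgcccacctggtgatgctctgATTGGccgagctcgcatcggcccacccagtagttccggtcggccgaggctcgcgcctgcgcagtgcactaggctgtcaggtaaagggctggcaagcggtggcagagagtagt
Cyp51: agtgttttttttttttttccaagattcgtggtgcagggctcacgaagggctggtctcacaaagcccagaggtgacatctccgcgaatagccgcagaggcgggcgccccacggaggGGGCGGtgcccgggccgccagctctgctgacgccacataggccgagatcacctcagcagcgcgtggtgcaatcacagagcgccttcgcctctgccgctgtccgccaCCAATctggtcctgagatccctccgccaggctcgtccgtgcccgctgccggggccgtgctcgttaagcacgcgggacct
Insig1: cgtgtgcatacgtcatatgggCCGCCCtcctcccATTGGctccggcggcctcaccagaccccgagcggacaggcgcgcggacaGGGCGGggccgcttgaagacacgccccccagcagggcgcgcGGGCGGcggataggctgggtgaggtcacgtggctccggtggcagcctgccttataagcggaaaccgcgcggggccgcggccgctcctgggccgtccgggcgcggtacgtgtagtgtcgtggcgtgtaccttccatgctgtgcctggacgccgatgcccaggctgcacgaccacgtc

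A window was found for 25 of the 32 genes. The sterol regulatory element was matched in 1 of the 25, in Hmgcs1 with its first base at position -137 from the start. It was matched in 1.44% of all 27025 genes with a window and in 1.57% of the 8276 tested genes with a window. Its shorter core CACCCCAC, which overlaps it in Hmgcs1, was matched in 2, Acat2 and Hmgcs1, against 3.3% of all genes and 3.71% of tested genes. CCAAT was matched in 22 of 25, against 41.1% of all genes and 42.8% of the 8276 tested genes with a window. GGGCGG was matched in 21 of 25, against 38.2% of all genes and 68.7% of tested genes with a window. A match is a description of letters and not of binding, and an unmatched window says only that these letters are not in it.

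Several libraries stood apart in genes of other cells. Summed over 8 pancreatic acinar markers, LF+CR 1 held 1420 RPKM, HF+CR 1 held 220 RPKM and LF+Ex 1 held 23.5 RPKM, against 0 to 3.23 RPKM in the other 15. Summed over 7 bile duct markers, HF+CR 3 held 173 RPKM and LF 2 held 150 RPKM, against 18.2 to 79.9 RPKM in the other 16, and HF+CR 3 was also highest in 6 stellate cell markers at 53.6 RPKM. Of 6 hepatocyte markers, 5 were above 0 in every library, while Alb was listed at 0 in 14 libraries and above 0 in HF 1 and in HF+Ex 1, 2 and 3. Depth, estimated from steps among the lowest values, was 21.8 M to 41.5 M reads. The part of these markers in the results was not tested, and the counts of members called are also given without the libraries that hold them.

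Under CR, the differences of all 19 synthesis genes were positive on both diets, and fewer were called on HF. There, 1 of the 8 mevalonate genes and 4 of the 11 sterol genes were called. On LF, the difference of Tm7sf2 was only 0.0069, and its mean was 66.18 RPKM in LF+CR and 68.24 RPKM in LF livers. In LF+CR against LF livers, 14 of the 32 genes rose and 0 fell, where 3.01% of all genes tested were called higher and 3.49% lower, 6.50% in all. They were 13 of the 19 synthesis genes and Insig1. In HF+CR against HF livers, 6 rose and 0 fell, where 0.628% of all genes were called higher and 0.772% lower, 1.40% in all, and all 6 were also among the 14: Mvk, Lss, Cyp51, Sc5d, Dhcr7 and Insig1. The median difference over the 32 genes was 0.90 in LF+CR against LF, beside 0.0002 over all genes tested, and 0.78 in HF+CR against HF, beside 0.0087. LF+CR libraries lay wholly above LF libraries for 21 of the 32 genes and wholly below for 1, where 11.6% and 11.7% of all genes did so. HF+CR libraries lay wholly above HF libraries for 16 and wholly below for 0, where 10.6% and 8.28% of all genes did so. In LF+CR against LF, 8 members were called without LF 2, of which 7 were among the 14 and 1 was Soat2, and 6, 9 and 7, all among the 14, were called without LF+CR 1, 2 and 3. In HF+CR against HF, 0 members were called without any 1 of HF 1, HF 2, HF 3, HF+CR 1 and HF+CR 2, and 16 without HF+CR 3. Without the 3 libraries with pancreatic transcripts, 5 genes remained called in LF+CR against LF (Acat2, Idi1, Lss, Sc5d and Insig1) and 0 in HF+CR against HF. Without the 2 libraries highest in bile duct markers the counts were 16 and 19.

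**Figure D1:**
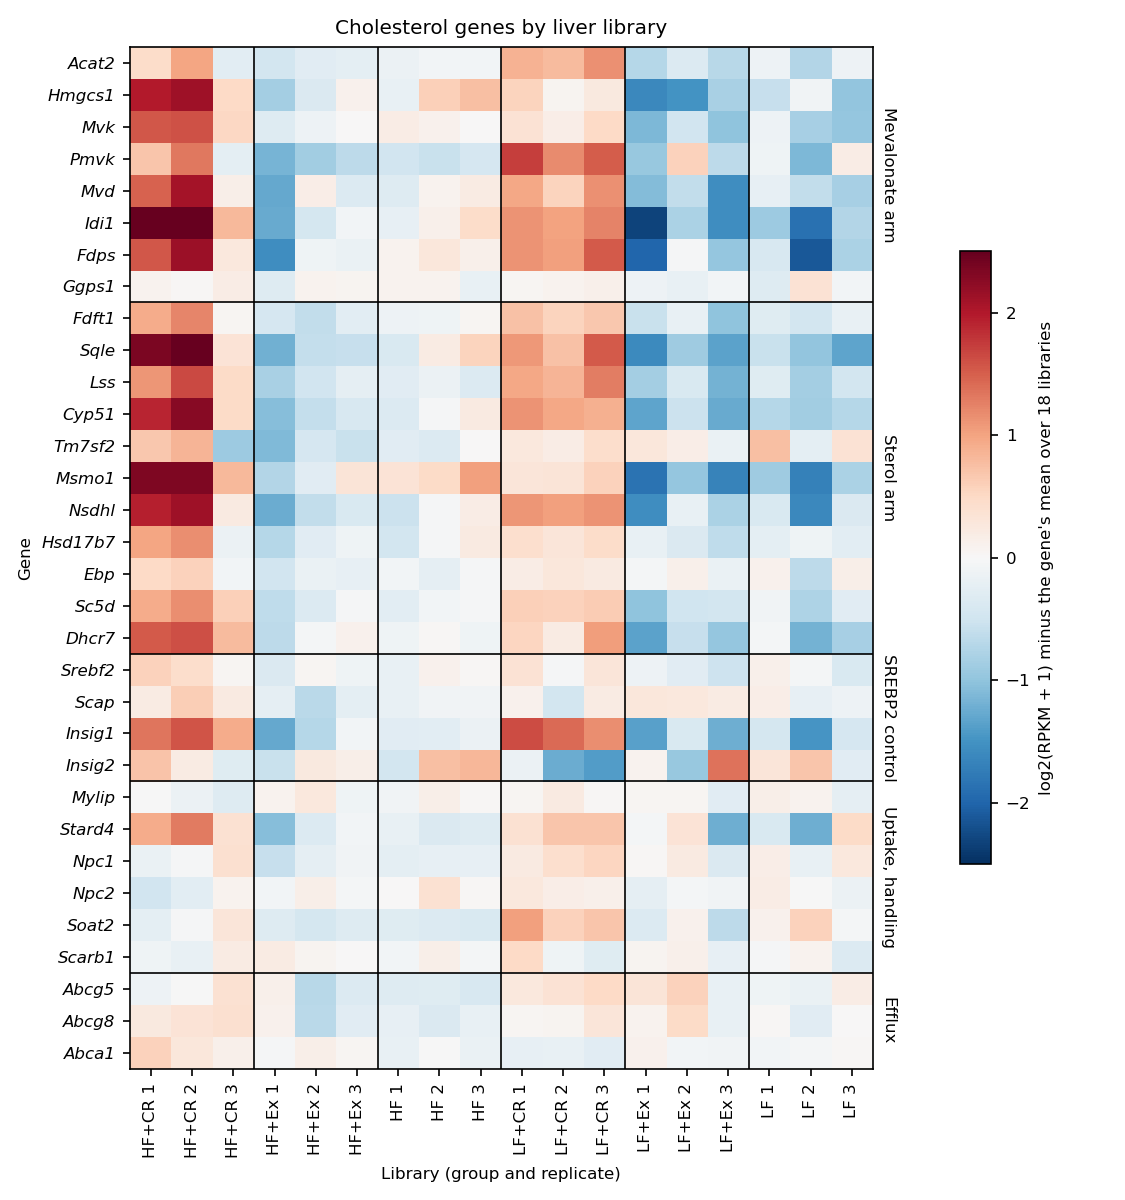
Level of each of the 32 genes (rows, grouped by step) in each of the 18 liver libraries (columns, grouped), as log2(RPKM + 1) minus the gene's mean over the libraries. Synthesis genes and Insig1 are red in HF+CR 1 and 2 and in the 3 LF+CR columns, while in HF+CR 3 Acat2, Pmvk, Tm7sf2, Hsd17b7 and Ebp lie below their own mean.

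**Figure D2:**
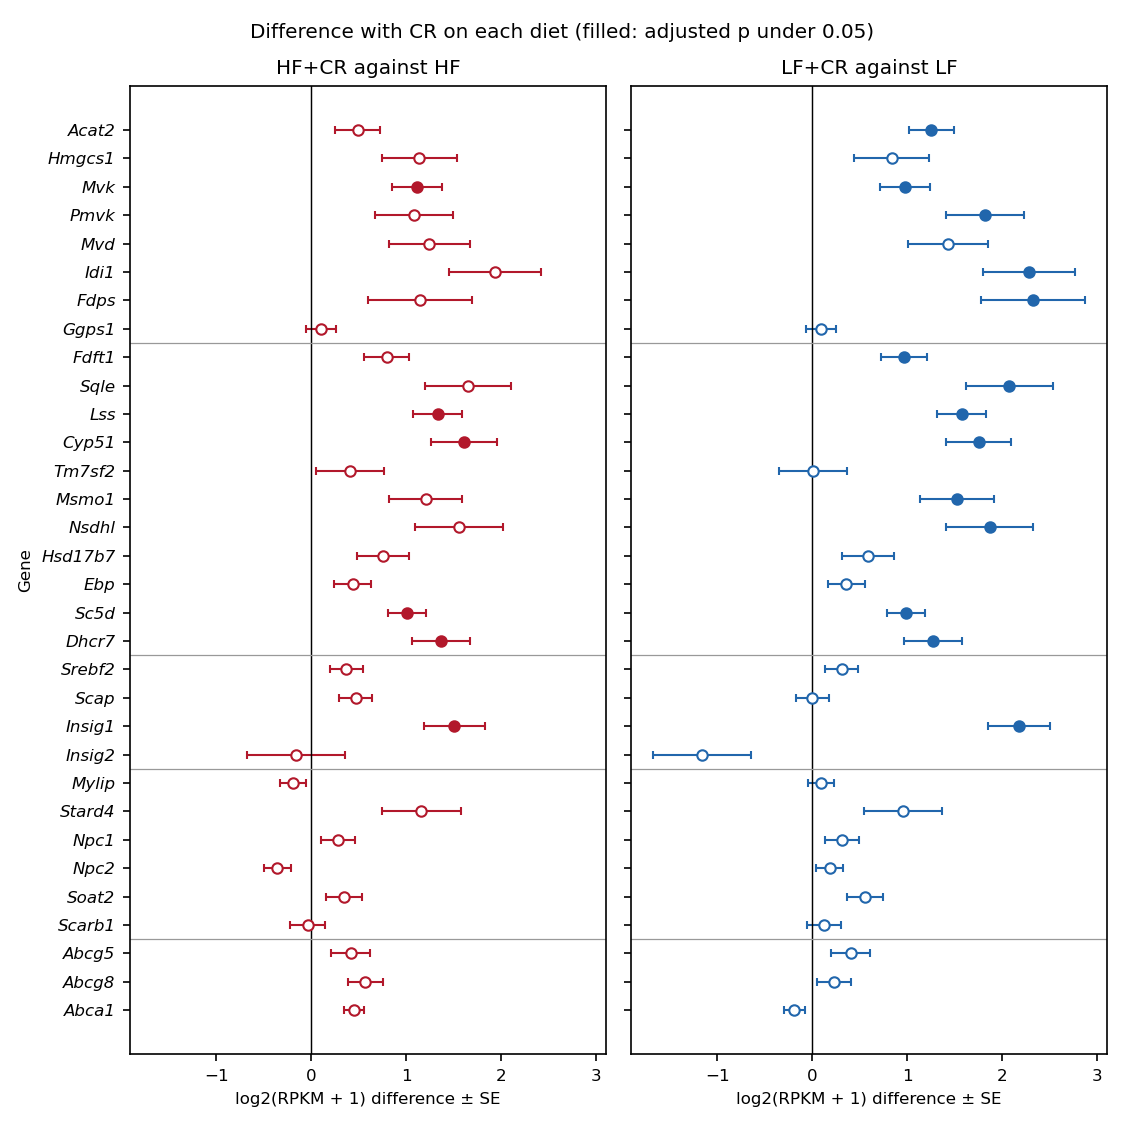
Difference of log2(RPKM + 1) ± SE under CR for each gene, HF+CR against HF on the left and LF+CR against LF on the right, with filled points where limma's adjusted p was under 0.05. Filled points number 6 on the left and 14 on the right, and all lie above 0.

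The 19 synthesis genes together summed to 1241 RPKM in HF+CR livers as means of the groups, to 426.4 RPKM in HF+Ex and 567.2 RPKM in HF livers, and to 925.3, 395.8 and 447.3 RPKM in LF+CR, LF+Ex and LF livers. HF+CR had the highest group mean for 17 of the 19 and LF+CR for the other 2, Acat2 and Pmvk. The lowest group mean was in LF+Ex for 15, in HF+Ex for 3 and in LF for 1. The same counts were not made over all genes, so they are not shown to be particular to synthesis genes. In LF+Ex against LF, the median difference over all genes tested was -0.13, and 20.9% of all genes were positive. The HF+CR libraries differed among themselves, with HF+CR 2 the highest of the group for 18 of the 19 and HF+CR 3 the lowest for 18. In HF+CR 3 the level was, in the median over the 19 genes, 0.389 times the mean of HF+CR 1 and 2. HF+Ex 1 was the lowest of its group for 18 of the 19, at a median of 0.637 times the mean of the other 2 libraries, and LF+Ex 2 was the highest of its group for 14.

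The mevalonate arm opens with Acat2, the cytosolic thiolase that joins acetyl-CoA units (a symbol once also used for Soat2, which is a separate gene here). Acat2 had 35.8, 33.6 and 43.0 RPKM in LF+CR replicates 1, 2 and 3, against 17.5, 11.1 and 17.4 RPKM in LF replicates 1, 2 and 3, the order used throughout. The groups did not overlap, and the difference was 1.26 ± 0.24 (adjusted p = 0.00642). In HF+CR livers it had 26.6, 38.7 and 15.8 RPKM, against 17.1, 18.1 and 18.2 RPKM in HF livers, so that HF+CR 3 lay below all 3 HF libraries, and the difference of 0.49 ± 0.24 did not pass (0.374).

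Hmgcs1, the cytosolic HMG-CoA synthase, had 181.6, 199 and 64.3 RPKM in HF+CR livers, against 39.8, 69.1 and 77.2 RPKM in HF livers, and 67.2, 47.1 and 53.8 RPKM in LF+CR livers, against 30.1, 42.6 and 22.2 RPKM in LF livers. Neither CR comparison passed, with differences of 1.14 ± 0.40 on HF (adjusted p = 0.190) and 0.84 ± 0.40 on LF (0.227), and the LF groups did not overlap while HF+CR 3 lay among the HF libraries. Hmgcs1 was called only against exercise: its level was 24.6, 35.0 and 49.0 RPKM in HF+Ex livers and 14.1, 15.5 and 25.5 RPKM in LF+Ex livers, and the differences were 1.90 ± 0.40 for HF+CR against HF+Ex (0.0242) and 1.59 ± 0.40 for LF+CR against LF+Ex (0.0212).

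Mvk, Pmvk and Mvd turn mevalonate into isopentenyl diphosphate. Mvk, mevalonate kinase, had 17.5, 17.9 and 8.08 RPKM in HF+CR livers, against 6.16, 5.79 and 5.36 RPKM in HF livers. It had 7.11, 6.06 and 7.90 RPKM in LF+CR livers, against 4.78, 2.56 and 2.22 RPKM in LF livers. Both CR groups lay wholly above the untreated group on the same diet, with differences of 1.12 ± 0.26 on HF (adjusted p = 0.0496) and 0.98 ± 0.26 on LF (0.0394). Pmvk, phosphomevalonate kinase, had 86.4, 58.2 and 74.2 RPKM in LF+CR livers, against 23.4, 11.01 and 28.97 RPKM in LF livers, a difference of 1.82 ± 0.41 (0.0175). In HF+CR livers Pmvk had 41.4, 64.2 and 21.2 RPKM, against 17.68, 16.7 and 18.6 RPKM in HF livers, and the difference of 1.08 ± 0.41 did not pass (0.235) although the groups did not overlap. Mvd, the decarboxylase, had 8.89, 6.46 and 10.1 RPKM in LF+CR livers, against 1.41, 2.32 and 0.724 RPKM in LF+Ex livers and 3.42, 2.30 and 1.86 RPKM in LF livers. LF+CR lay wholly above both groups, and the call was made against LF+Ex (1.97 ± 0.43, adjusted p = 0.0108) but not against LF (1.43 ± 0.43, 0.0565). On HF, Mvd had 13.2, 20.5 and 4.57 RPKM in HF+CR livers, 1.10, 4.67 and 2.97 RPKM in HF+Ex livers and 3.04, 4.41 and 4.83 RPKM in HF livers, where HF+CR 3 lay among the HF libraries and no call was made.

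Idi1, the isomerase that makes the second isoprene unit, had 34.8, 31.9 and 37.8 RPKM in LF+CR livers, against 7.79, 3.52 and 8.87 RPKM in LF livers. It had 93.9, 118 and 27.9 RPKM in HF+CR livers, against 13.3, 17.02 and 21.7 RPKM in HF livers. CR libraries lay wholly above on both diets, and Idi1 passed on LF (2.29 ± 0.49, adjusted p = 0.0125) and not on HF (1.94 ± 0.49, 0.0704). Fdps, farnesyl diphosphate synthase, had 124.6, 116 and 165 RPKM in LF+CR livers, against 42.6, 12.3 and 32.3 RPKM in LF livers, and rose by 2.33 ± 0.55 (0.0224), the largest difference among the 32 genes in that comparison. In HF+CR livers Fdps had 167, 252 and 68.2 RPKM, against 59.9, 69.5 and 62.2 RPKM in HF livers, where HF+CR 3 lay among the HF libraries (1.15 ± 0.55, 0.370). Ggps1, which takes farnesyl diphosphate into the geranylgeranyl branch and away from sterols, ranged from 1.37 to 1.63 RPKM in HF+CR, 0.849 to 1.44 in HF+Ex, 1.03 to 1.46 in HF, 1.38 to 1.51 in LF+CR, 1.02 to 1.21 in LF+Ex and 0.854 to 1.97 RPKM in LF livers and was called in no comparison.

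The sterol arm begins with Fdft1, squalene synthase. Fdft1 had 50.5, 44.7 and 49.0 RPKM in LF+CR livers, against 24.2, 21.9 and 26.6 RPKM in LF livers, a difference of 0.96 ± 0.24 (adjusted p = 0.0293), and the groups did not overlap. On HF it had 58.7, 72.0 and 31.2 RPKM in HF+CR livers, against 27.5, 28 and 31.4 RPKM in HF livers, with HF+CR 3 among the HF libraries (0.80 ± 0.24, 0.138). Sqle, squalene epoxidase, a controlled step of the pathway, had 10.6, 8.04 and 14.8 RPKM in LF+CR livers, against 2.68, 1.75 and 1.17 RPKM in LF livers. In HF+CR livers Sqle had 26.8, 32.6 and 5.94 RPKM, against 3.18, 5.25 and 6.99 RPKM in HF livers. Its mean was 5.96 times that of LF livers under LF+CR (2.08 ± 0.46, adjusted p = 0.0152) and 4.24 times that of HF livers under HF+CR (1.65 ± 0.46, 0.101), where HF+CR 3 again lay among the HF libraries.

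Lss, which closes squalene epoxide to lanosterol, had 17.04, 25.4 and 10.8 RPKM in HF+CR livers, against 5.98, 6.60 and 5.66 RPKM in HF livers, and 15.6, 14.2 and 19.5 RPKM in LF+CR livers, against 5.82, 3.68 and 5.13 RPKM in LF livers. CR libraries lay wholly above on both diets, by 1.33 ± 0.26 on HF (adjusted p = 0.0216) and 1.57 ± 0.26 on LF (0.00314). Cyp51, the lanosterol demethylase, had 49.0, 63.9 and 17.6 RPKM in HF+CR livers, against 9.52, 12.03 and 14.5 RPKM in HF livers, and 27.9, 24.9 and 23.6 RPKM in LF+CR livers, against 7.11, 6.30 and 7.13 RPKM in LF livers. Its groups did not overlap on either diet, with differences of 1.61 ± 0.34 on HF (0.0338) and 1.75 ± 0.34 on LF (0.00803).

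Msmo1, Nsdhl and Hsd17b7 remove further methyl groups from the sterol ring. Msmo1, the methylsterol oxidase, had 23.6, 23.9 and 28.8 RPKM in LF+CR livers, against 9.71, 5.16 and 10.6 RPKM in LF livers, and rose by 1.53 ± 0.39 (adjusted p = 0.0304) with no overlap. In HF+CR livers it had 98.9, 99.9 and 34.1 RPKM, against 24.2, 26.9 and 39.8 RPKM in HF livers, and the difference of 1.21 ± 0.39 did not pass (0.152). Nsdhl, the dehydrogenase, had 25.6, 24.1 and 25.8 RPKM in LF+CR livers, against 8.46, 3.02 and 8.65 RPKM in LF livers, and rose by 1.87 ± 0.46 (0.0283). Nsdhl in HF+CR livers was 46.4, 52.8 and 13.5 RPKM, against 7.53, 11.1 and 13.1 RPKM in HF livers, without overlap and without a call (1.56 ± 0.46, 0.132). Hsd17b7, the keto-reductase, ranged from 5.88 to 16.2 RPKM in HF+CR, 3.64 to 6.15 in HF+Ex, 4.56 to 7.90 in HF, 8.37 to 9.51 in LF+CR, 3.90 to 5.76 in LF+Ex and 5.41 to 6.11 RPKM in LF livers, and was called in none of the comparisons.

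The last steps of the arm are the isomerase Ebp, the desaturase Sc5d and the reductase Dhcr7, which yields cholesterol. Sc5d had 253.8, 300.3 and 202 RPKM in HF+CR livers, against 111, 128 and 132 RPKM in HF livers, and 201, 201 and 208 RPKM in LF+CR livers, against 126, 77.9 and 109 RPKM in LF livers. It rose by 1.01 ± 0.20 on HF (adjusted p = 0.0229) and by 0.98 ± 0.20 on LF (0.0101), without overlap on either diet. Dhcr7 had 36.7, 39.2 and 21.6 RPKM in HF+CR livers, against 11.2, 12.4 and 11.2 RPKM in HF livers, and 18, 14.03 and 25.8 RPKM in LF+CR livers, against 11.6, 4.78 and 6.40 RPKM in LF livers. It rose by 1.37 ± 0.31 on HF (0.0390) and by 1.28 ± 0.31 on LF (0.0239), again without overlap. Ebp was abundant in all groups, from 98.9 to 155 RPKM in HF+CR, 74.2 to 91.9 in HF+Ex, 89.0 to 102 in HF, 117 to 126 in LF+CR, 92.0 to 113 in LF+Ex and 66.0 to 115 RPKM in LF livers. Tm7sf2, a sterol reductase, ranged from 28 to 97.04 RPKM in HF+CR, 24.4 to 39.8 in HF+Ex, 41.8 to 53.6 in HF, 60.7 to 73.2 in LF+CR, 47.6 to 65.2 in LF+Ex and 45.2 to 90.3 RPKM in LF livers. Neither Ebp nor Tm7sf2 was called in any comparison, and Tm7sf2 had the smallest difference of the 19 synthesis genes in LF+CR against LF (0.01 ± 0.36).

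**Figure D3:**
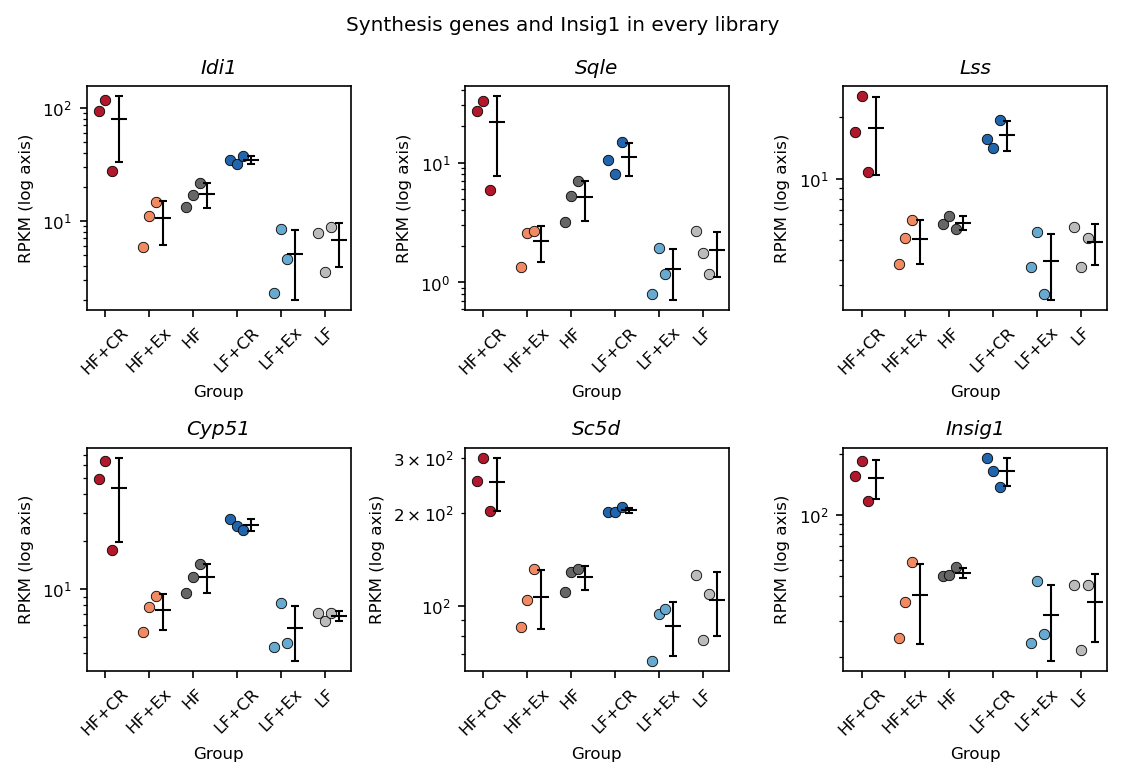
RPKM on a log axis in each library (points) for 5 synthesis genes and Insig1, by group, with bars at the group mean ± SD over 3 libraries. In HF+CR the lowest point is HF+CR 3 in all 6 panels, and the LF+CR points lie above the LF points in every panel.

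Of the 4 genes of SREBP2 control, Insig1 alone was called under CR against no treatment. Insig1 holds SCAP in the endoplasmic reticulum and is itself a known SREBP target. It had 155.9, 183 and 117 RPKM in HF+CR livers, against 49.9, 50.7 and 55.2 RPKM in HF livers, and 191, 165 and 138 RPKM in LF+CR livers, against 44.9, 21.5 and 45.3 RPKM in LF livers. Every CR library lay above every library of the untreated group on its diet, and the mean was 2.93 times that of HF livers under HF+CR (1.51 ± 0.33, adjusted p = 0.0339) and 4.42 times that of LF livers under LF+CR (2.18 ± 0.33, 0.00171). Its close relative Insig2 did not follow it: it had 97.2, 67.5 and 47.7 RPKM in HF+CR livers, against 42.4, 99.3 and 104.8 RPKM in HF livers, and 52.8, 24.3 and 21.8 RPKM in LF+CR livers, against 72.6, 95.8 and 48.2 RPKM in LF livers. These groups overlapped on both diets, with differences of -0.16 ± 0.52 on HF (0.930) and -1.16 ± 0.52 on LF (0.197), and the 3 LF+Ex libraries alone spanned 30.01 to 151.9 RPKM, beside 39.7 to 69.6 RPKM in HF+Ex livers.

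Srebf2, which encodes SREBP2, had 13.6, 12.3 and 9.10 RPKM in HF+CR livers, against 7.62, 9.54 and 9.02 RPKM in HF livers, and 11.6, 8.64 and 11.2 RPKM in LF+CR livers, against 9.74, 8.51 and 6.54 RPKM in LF livers. The groups overlapped on both diets, and the differences of 0.37 ± 0.17 on HF (adjusted p = 0.351) and 0.31 ± 0.17 on LF (0.309) did not pass. Under exercise Srebf2 ranged from 6.64 to 9.21 RPKM in HF+Ex and from 5.84 to 7.96 RPKM in LF+Ex livers. Scap, the escort of SREBP2, had 21.2, 28.8 and 21.7 RPKM in HF+CR livers, 15.5, 11.2 and 15.4 RPKM in HF+Ex livers and 16.01, 17.2 and 17.3 RPKM in HF livers. On LF it had 19.9, 13.04 and 21.5 RPKM in LF+CR, 22.5, 22.4 and 21.4 RPKM in LF+Ex and 20.9, 15.9 and 16.8 RPKM in LF livers. HF+CR lay wholly above both other HF groups, and the call was made against HF+Ex (0.73 ± 0.17, adjusted p = 0.0423) and not against HF (0.47 ± 0.17, 0.214). The call against HF+Ex was kept in 12 of 29 alternative fits. It was lost when any library of HF or HF+Ex, or HF+CR 1, HF+CR 2, LF+CR 1, LF+Ex 1 or LF+Ex 2, was left out. The call was also lost with median-of-ratios scaling, quantile normalization, a replicate block or no filter on low values. It was lost as well with these 2 groups fitted alone and without the 3 libraries with pancreatic transcripts. A second RefSeq row of Scap overlapped, with 19.4, 8.50 and 13.8 RPKM in HF+CR livers, against 4.55, 13.99 and 8.20 RPKM in HF+Ex livers.

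None of the 6 genes of uptake and handling was called under CR on either diet. Stard4, a cytosolic sterol carrier, had the largest differences among them: it had 29.6, 38.5 and 19.8 RPKM in HF+CR livers, against 13.1, 11.4 and 11.8 RPKM in HF livers, and 19.8, 24.8 and 24.9 RPKM in LF+CR livers, against 11.4, 5.89 and 21.3 RPKM in LF livers. The groups were apart on HF (1.16 ± 0.41, adjusted p = 0.197) and overlapped on LF (0.96 ± 0.41, 0.185). Stard4 ranged from 6.64 to 14.3 RPKM in HF+Ex and from 5.91 to 19.4 RPKM in LF+Ex livers. Soat2, which esterifies cholesterol in hepatocytes, had 61.5, 44.9 and 48.8 RPKM in LF+CR livers, against 32.1, 44.6 and 28.8 RPKM in LF livers, a difference of 0.55 ± 0.19 that did not pass (0.101). In the HF groups Soat2 had 24.9, 29.1 and 36.9 RPKM in HF+CR livers, against 24, 23.1 and 22.7 RPKM in HF livers (0.35 ± 0.19, 0.450).

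Npc1 and Npc2, which release cholesterol from lysosomes, were called in no comparison. Npc1 ranged from 30.8 to 45.8 RPKM in HF+CR, 22.8 to 32.4 in HF+Ex, 29.1 to 29.9 in HF, 40.4 to 50.4 in LF+CR, 26.7 to 40.6 in LF+Ex and 30.2 to 41.3 RPKM in LF livers. Npc2 ranged from 14.9 to 22.5 RPKM in HF+CR, 20.2 to 23.7 in HF+Ex, 21.2 to 27.8 in HF, 23.4 to 25.6 in LF+CR, 17.9 to 20.6 in LF+Ex and 19.01 to 24.2 RPKM in LF livers. For Npc2, HF+CR 1 was the lowest library of the 18, and the HF+CR and HF libraries overlapped. Uptake was represented by Scarb1, the receptor that takes cholesteryl ester from HDL, and Mylip, a ubiquitin ligase that marks lipoprotein receptors for degradation. Scarb1 ranged from 51.2 to 67.5 RPKM in HF+CR, 58.7 to 67.3 in HF+Ex, 55.7 to 64.6 in HF, 47.1 to 83.3 in LF+CR, 50.4 to 64.3 in LF+Ex and 45.7 to 62.2 RPKM in LF livers. Mylip ranged from 3.40 to 4.51 RPKM in HF+CR, 4.13 to 5.58 in HF+Ex, 4.21 to 5.13 in HF, 4.63 to 5.44 in LF+CR, 3.54 to 4.74 in LF+Ex and 3.75 to 5.13 RPKM in LF livers. Neither was called in any comparison. Their differences under CR were -0.04 ± 0.18 and -0.19 ± 0.14 on HF and 0.13 ± 0.18 and 0.09 ± 0.14 on LF for Scarb1 and Mylip in that order.

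The efflux genes are Abcg5 and Abcg8, half-transporters that pair to pass sterols into bile, and Abca1, which loads cholesterol onto lipid-poor apolipoproteins. Abcg5 had 47.4, 51.6 and 67.6 RPKM in HF+CR livers, against 41.3, 42.1 and 39.3 RPKM in HF livers, and 62.4, 66.7 and 73.5 RPKM in LF+CR livers, against 48.0, 46.1 and 58.9 RPKM in LF livers. Abcg8 had 40.3, 42.7 and 44.7 RPKM in HF+CR livers, against 29.2, 26.1 and 29.6 RPKM in HF livers, and 35.1, 35.5 and 42.0 RPKM in LF+CR livers, against 34.4, 27.5 and 33.8 RPKM in LF livers. All 4 of these pairs of groups were apart with CR higher, by 0.23 to 0.57, and none passed (adjusted p = 0.149 to 0.482). Under exercise Abcg5 ranged from 31.6 to 57.2 RPKM in HF+Ex and from 45.8 to 77.9 RPKM in LF+Ex livers, and Abcg8 from 20.8 to 36.2 RPKM in HF+Ex and from 29.4 to 47.2 RPKM in LF+Ex livers.

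Abca1 differed in sign between the diets, without a call in either CR comparison. It had 24.96, 20.2 and 18.1 RPKM in HF+CR livers, against 14.3, 16.3 and 14.4 RPKM in HF livers (0.45 ± 0.11, adjusted p = 0.0504), and 14.1, 14.3 and 13.4 RPKM in LF+CR livers, against 15.5, 15.9 and 16.7 RPKM in LF livers (-0.19 ± 0.11, 0.326). HF+CR lay wholly above HF and LF+CR wholly below LF. The difference between these differences, the CR by diet interaction, was 0.64 ± 0.15 (adjusted p = 0.0604), and without HF+CR 3 the interaction of Abca1 was called.

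**Figure D4:**
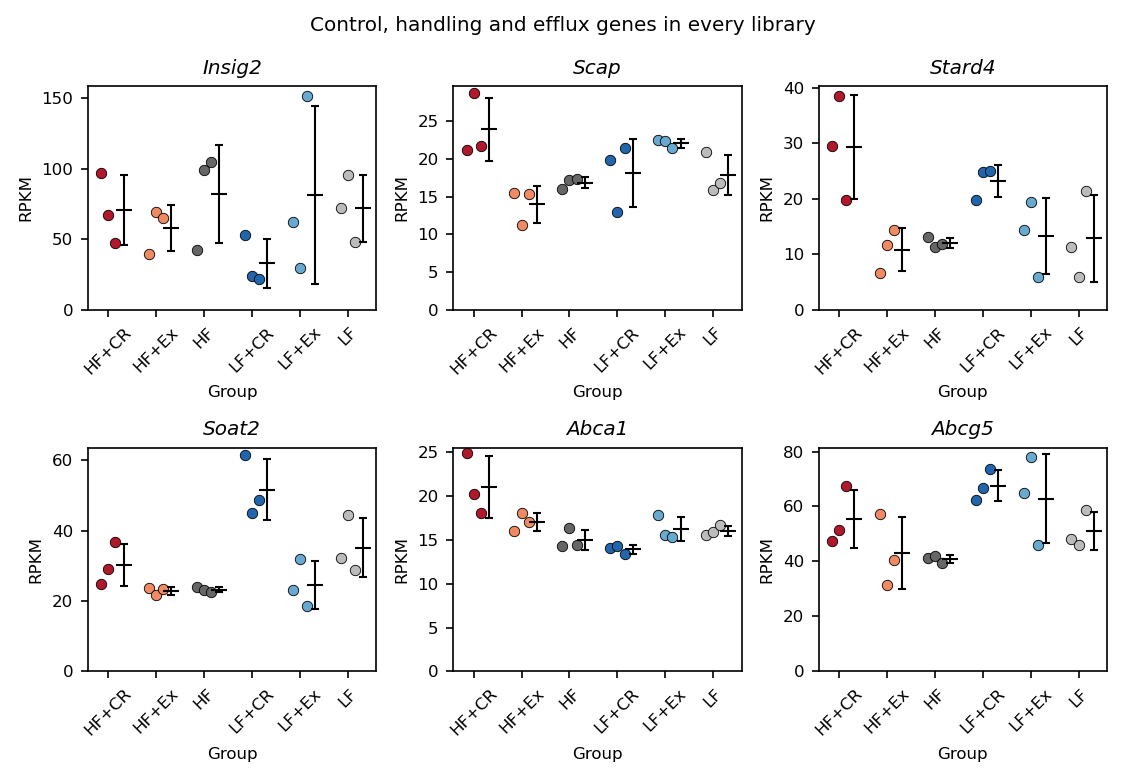
RPKM in each library (points) for 6 genes of SREBP2 control, handling and efflux, by group, with bars at the group mean ± SD over 3 libraries. Insig2 libraries of LF+Ex span 30.01 to 151.9 RPKM, Soat2 is highest in LF+CR, and Abca1 is highest in HF+CR.

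CR was also set against exercise on the same diet. In LF+CR against LF+Ex livers, 17 of the 32 rose and 0 fell, where 7.52% of all genes were called higher and 2.70% lower, 10.2% in all, and the median difference was 1.14 beside 0.13 over all genes. LF+CR libraries lay wholly above LF+Ex libraries for 23 of the 32 and wholly below for 1, where 27.6% and 7.40% of all genes did so. The 17 were the 14 called against LF together with Hmgcs1, Mvd and Soat2. Insig1 had 191, 165 and 138 RPKM in LF+CR livers, against 23.3, 47.0 and 25.8 RPKM in LF+Ex livers, and rose by 2.38 ± 0.33 (adjusted p = 0.000541). Idi1 rose by 2.67 ± 0.49 (0.00378) and Sqle by 2.39 ± 0.46 (0.00545), which with LF+Ex means of 5.14 and 1.304 RPKM made their LF+CR means 6.78 and 8.54 times as high. Soat2 had 61.5, 44.9 and 48.8 RPKM in LF+CR livers, against 23.3, 32.04 and 18.6 RPKM in LF+Ex livers, and rose by 1.06 ± 0.19 (0.00379). Median-of-ratios scaling and quantile normalization shifted the difference of the median gene in this comparison by -0.12 and -0.11. Leaving out 1 library at a time gave 12 to 19 calls, 19 members were called without the 2 libraries highest in bile duct markers, and without the 3 libraries with pancreatic transcripts 3 members, Acat2, Lss and Insig1, remained called.

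In HF+CR against HF+Ex livers, 13 rose and 0 fell, where 1.15% of all genes were called higher and 0.695% lower, 1.84% in all, and the median difference was 1.10 beside 0.04 over all genes. HF+CR libraries lay wholly above HF+Ex libraries for 19 of the 32 and wholly below for 0, where 14.7% and 8.19% of all genes did so. The 13 were Hmgcs1, Mvk, Idi1, Fdft1, Sqle, Lss, Cyp51, Msmo1, Nsdhl, Sc5d, Dhcr7, Scap and Insig1. Sqle had 26.8, 32.6 and 5.94 RPKM in HF+CR livers, against 1.36, 2.603 and 2.67 RPKM in HF+Ex livers, a ratio of means of 9.87 and a difference of 2.57 ± 0.46 (adjusted p = 0.00932). Cyp51 had 49.0, 63.9 and 17.6 RPKM in HF+CR livers, against 5.37, 7.77 and 9.11 RPKM in HF+Ex livers, and rose by 2.25 ± 0.34 (0.00505). Even HF+CR 3, the lowest of its group, lay above all 3 HF+Ex libraries for both genes. The count was 4 without HF+CR 1, HF+CR 2 or HF+Ex 1, 20 without HF+CR 3, 1 (Sc5d) without the 3 libraries with pancreatic transcripts, 22 without the 2 highest in bile duct markers and 0 when these groups were fitted alone.

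Further synthesis genes were set against exercise in the same way. Fdps, at 125, 116 and 165 RPKM in LF+CR livers, against 13.5, 55.5 and 28.6 RPKM in LF+Ex livers, rose by 2.22 ± 0.55 (adjusted p = 0.0210), and Pmvk, with 12.7, 38.1 and 15.7 RPKM in LF+Ex livers, rose by 1.82 ± 0.41 (0.0135). Neither was called in HF+CR against HF+Ex, where Fdps had 18.6, 52.7 and 50.5 RPKM and Pmvk 10.8, 13.3 and 15.7 RPKM in HF+Ex livers. Lss had 3.81, 5.10 and 6.26 RPKM in HF+Ex livers and 3.68, 5.51 and 2.72 RPKM in LF+Ex livers, and rose by 1.57 ± 0.26 in HF+CR against HF+Ex (0.00747) and 1.84 ± 0.26 in LF+CR against LF+Ex (0.000703). Sc5d had 85.7, 104.8 and 131 RPKM in HF+Ex livers and 66.3, 93.9 and 97.6 RPKM in LF+Ex livers, and rose by 1.23 ± 0.20 (0.00747) and 1.26 ± 0.20 (0.00168) in the same comparisons. For both genes every CR library lay above every exercise library of its diet. Of the other members called against exercise, Mvk ranged from 4.04 to 5.38 RPKM in HF+Ex and 1.91 to 3.52 RPKM in LF+Ex livers, Idi1 from 5.88 to 14.7 and 2.31 to 8.50, and Fdft1 from 19.5 to 24.9 and 14.5 to 26.5 RPKM. Msmo1 ranged from 11.1 to 23.8 RPKM in HF+Ex and 4.54 to 9.22 RPKM in LF+Ex livers, Nsdhl from 4.26 to 8.44 and 3.22 to 9.81, and Dhcr7 from 7.34 to 13.1 and 4.16 to 7.83 RPKM. Acat2, called against exercise on LF, ranged from 13.5 to 15.9 RPKM in HF+Ex and 11.2 to 14.7 RPKM in LF+Ex livers.

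Exercise set against no treatment gave no call. Of the 32 genes, 0 passed in HF+Ex against HF and 0 in LF+Ex against LF, where 0% of all genes were called by limma in either comparison. At an unadjusted p under 0.05, 1 of the 32 and 377 of all genes passed on HF, and 1 of the 32 and 944 of all genes on LF. In HF+Ex against HF, 28 of the 32 differences were negative, including those of all 19 synthesis genes, with a median over the 32 genes of -0.24 beside -0.02 over all genes, of which 43.56% were positive. HF+Ex libraries lay wholly below HF libraries for 9 of the 32 genes and wholly above for 0, where 8.06% and 2.96% of all genes did so. The largest of these differences were -0.92 ± 0.46 for Sqle, at 1.36, 2.603 and 2.67 RPKM in HF+Ex livers, against 3.18, 5.25 and 6.99 RPKM in HF livers, and -0.85 ± 0.39 for Msmo1, at 11.1, 15.4 and 23.8 RPKM, against 24.2, 26.9 and 39.8 RPKM in HF livers. Their adjusted p was 1 in both cases. In LF+Ex against LF, 23 of the 32 were negative with a median of -0.20, beside -0.13 over all genes, of which 20.9% were positive, and LF+Ex libraries lay wholly above LF libraries for 1 of the 32 and wholly below for 0, where 0.830% and 11.4% of all genes did so. Median-of-ratios scaling and quantile normalization each shifted the median gene of this comparison by 0.13, after which the median over the 32 genes was -0.04 and -0.06. It was -0.10 without the 3 libraries with pancreatic transcripts and -0.33 without the 2 highest in bile duct markers. The Ex by diet interaction called 0 of the 32 and 0% of all genes, with 1 of the 32 and 525 of all genes at an unadjusted p under 0.05.

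Diet without further treatment called none of the 32 genes. In HF against LF livers, 0.261% of all genes were called higher and 0.145% lower, 0.405% in all, and 7 of the 32 passed an unadjusted p under 0.05, as did 1742 of all genes. Msmo1 came nearest, with 24.2, 26.9 and 39.8 RPKM in HF livers, against 9.71, 5.16 and 10.6 RPKM in LF livers, a ratio of means of 3.57 and a difference of 1.74 ± 0.39 (adjusted p = 0.0592). It was called without HF+CR 3, a library of neither group that enters the shared estimate of spread, and with either other scaling. HF libraries lay wholly above LF libraries for 8 of the 32 and wholly below for 3, where 7.96% and 10.9% of all genes did so. The 8 were Mvk, Idi1, Fdps, Fdft1, Sqle, Cyp51, Msmo1 and Insig1, and the 3 were Npc1, Soat2 and Abcg5.

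Under CR, 4 of the 32 members were called between the diets, a share not far from that of all genes tested. In HF+CR against LF+CR livers, 3 rose and 1 fell, where 4.70% of all genes were called higher and 5.07% lower, 9.77% in all. Abca1 had 24.96, 20.2 and 18.1 RPKM in HF+CR livers, against 14.1, 14.3 and 13.4 RPKM in LF+CR livers, a rise of 0.55 ± 0.11 (adjusted p = 0.00496). Msmo1 had 98.9, 99.9 and 34.1 RPKM in HF+CR livers, against 23.6, 23.9 and 28.8 RPKM in LF+CR livers, a rise of 1.43 ± 0.39 (0.0301), and Mvk rose by 0.88 ± 0.26 (0.0468). Soat2 fell, with 24.9, 29.1 and 36.9 RPKM in HF+CR livers, against 61.5, 44.9 and 48.8 RPKM in LF+CR livers, a difference of -0.76 ± 0.19 (0.0219). None of the 4 had overlapping groups. Over the 32 genes, HF+CR libraries lay wholly above LF+CR libraries for 3 and wholly below for 3, where 15.6% and 15.7% of all genes did so. The median over the 32 genes was 0.16, beside -0.0034 over all genes. The count of 4 was 1 without LF+CR 1 or HF+CR 1 and 2 without LF+CR 2 or HF+CR 2. Without HF+CR 2 these were Abca1, higher, and Acat2, lower, which is not among the 4. The count was 10 without HF+CR 3, 0 without the 3 libraries with pancreatic transcripts and 11 without the 2 highest in bile duct markers.

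Under exercise, Scap was called between the diets. It had 15.5, 11.2 and 15.4 RPKM in HF+Ex livers, against 22.5, 22.4 and 21.4 RPKM in LF+Ex livers, a fall of 0.63 ± 0.17 on the log2 scale with no overlap (adjusted p = 0.0466). In this comparison 4.13% of all genes were called higher and 1.01% lower, 5.15% in all. HF+Ex libraries lay wholly above LF+Ex libraries for 2 of the 32 and wholly below for 3, where 24.2% and 6.67% of all genes did so. The call was kept in 13 of 29 alternatives and lost when any library of HF+Ex, LF+Ex or HF, or LF+CR 1 or HF+CR 1, was left out. The count of members called was 0 in these cases, except 1 without LF+Ex 3 (Abcg5), and it was 4 without HF+CR 3. It was also lost with the RefSeq rows of Scap summed, where the second row had 4.55, 13.99 and 8.20 RPKM in HF+Ex livers, against 11.99, 6.88 and 5.08 RPKM in LF+Ex livers.

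The size of the CR difference was not called as different between the diets for any member. The CR by diet interaction, which is HF+CR against HF minus LF+CR against LF, called 0 of the 32, where 0.579% of all genes were called higher and 0.444% lower by limma, 1.02% in all. At an unadjusted p under 0.05, 3 of the 32 and 1220 of all genes passed. The median interaction over the 32 genes was -0.09, beside 0.01 over all genes. For Insig1 the interaction was -0.66 ± 0.46, for Lss -0.24 ± 0.37, for Fdps -1.18 ± 0.78 and for Acat2 -0.77 ± 0.34 (adjusted p = 0.384 for Acat2). The calls made on LF and not on HF are therefore not shown to differ between the diets.

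Other genes around the pathway were counted from 5 lists, apart from the 32. Of all genes tested, limma called 6.50% in LF+CR against LF, 1.40% in HF+CR against HF and 9.77% in HF+CR against LF+CR. It called 5.15% in HF+Ex against LF+Ex, 10.2% in LF+CR against LF+Ex and 1.84% in HF+CR against HF+Ex. With lists this short, a count of 1 or 2 genes is not a result about a list. Of 7 genes of acetyl-CoA and precursor supply, 2 rose and 1 fell in LF+CR against LF livers, with a list median of 0.49. Acly, ATP-citrate lyase, which makes cytosolic acetyl-CoA, averaged 81.4 ± 27.4 RPKM in LF+CR livers and 16.5 ± 2.42 RPKM in LF livers (SD, n = 3 each), a difference of 2.18 ± 0.27 (adjusted p = 0.000539). It kept its call without the 3 libraries with pancreatic transcripts (2.10 ± 0.34, 0.0109) and without the 2 highest in bile duct markers (2.06 ± 0.29, 0.00173). Acss2, acetyl-CoA synthetase, rose by 1.66 ± 0.45 (0.0402), and lost its call in both cases (0.0911 without the 3 libraries, 0.0512 without the 2). In HF+CR against HF, 0 of the 7 were called, and in HF+CR against LF+CR Acly fell by 1.04 ± 0.27 (0.0259), a call lost in both cases (0.256 and 0.0737).

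Of 10 genes of SREBP processing and sterol-regulated degradation, 1 rose in LF+CR against LF, the sterol-responsive membrane protein gene Tmem97, by 0.83 ± 0.16 (adjusted p = 0.00706), with a list median of 0.05. None of the 10 was called in HF+CR against HF, and Rnf145, a ubiquitin ligase, fell by 1.36 ± 0.27 on the log2 scale in HF+CR against LF+CR (0.00559). Of 11 tested genes of intracellular sterol transport, Tmem41b, an endoplasmic reticulum lipid scramblase, rose on both diets under CR, by 0.48 ± 0.09 on HF (0.0208) and 0.79 ± 0.09 on LF (0.000242). Scp2, a peroxisomal sterol carrier protein and thiolase, fell by 0.78 ± 0.13 on the log2 scale in LF+CR against LF (0.00368) and rose by 0.80 ± 0.13 in HF+CR against LF+CR (0.00181). Tmem97, Tmem41b and Scp2 kept their calls in LF+CR against LF without the 3 libraries with pancreatic transcripts and without the 2 highest in bile duct markers. The call of Tmem41b on HF was lost without the 3 libraries (0.0984) and kept without the 2 (0.0244).

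Of 9 tested genes of the isoprenoid branch and 10 genes of LXR, efflux and lipoprotein remodelling, limma called 0 in either CR comparison against no treatment, with list medians of -0.06 and -0.07 on HF and 0.04 and -0.15 on LF. Between the diets under CR, Pltp, the phospholipid transfer protein, averaged 23.8 ± 6.13 RPKM in HF+CR livers and 81.2 ± 22.2 RPKM in LF+CR livers (SD, n = 3 each), a difference of -1.73 ± 0.30 (adjusted p = 0.00256). Lcat, which esterifies cholesterol in plasma lipoproteins, fell by 0.42 ± 0.11 on the log2 scale (0.0327), and Pdss2, of the side chain of coenzyme Q, rose by 0.48 ± 0.12 (0.0189). Between the diets under exercise, in HF+Ex against LF+Ex, Lcat fell by 0.43 ± 0.11 on the log2 scale (0.0433) and Rabggtb, a subunit of the enzyme that geranylgeranylates Rab proteins, fell by 0.41 ± 0.10 (0.0326). Without the 3 libraries with pancreatic transcripts, none of the genes of the 5 lists called between the diets under CR or under exercise kept its call. In LF+CR against LF+Ex, Acly, Acss2, Slc25a1, Rnf145, Tmem97, Gramd1c and Tmem41b rose, by 0.67 ± 0.09 for Tmem41b (0.000538) up to 2.17 ± 0.27 for Acly (0.000293), and Scp2 fell by 0.90 ± 0.13 (0.000967). Of these, Acss2, Slc25a1 and Gramd1c lost their call without the 3 libraries with pancreatic transcripts. In HF+CR against HF+Ex, Tmem41b rose by 0.62 ± 0.09 (0.00501).

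The weight of single libraries was uneven between the diets. On LF, Acat2, Idi1, Lss, Sc5d and Insig1 kept their call under LF+CR in all 29 alternatives run, which include leaving out each of the 18 libraries. Cyp51 kept it in 28 of 29 and Mvk in 16 of 29. On HF, Lss and Sc5d kept theirs in 22 of 29 alternatives, Cyp51 and Insig1 in 21, Dhcr7 in 15 and Mvk in 7. Without HF+CR 3, the library highest in bile duct and stellate cell markers, the HF+CR against HF difference was 2.15 ± 0.24 for Cyp51 (adjusted p = 0.00115), 2.37 ± 0.31 for Sqle (0.00267) and 2.56 ± 0.42 for Idi1 (0.00585), and Abca1 was then called at 0.55 ± 0.11 (0.0155).

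**Figure D5:**
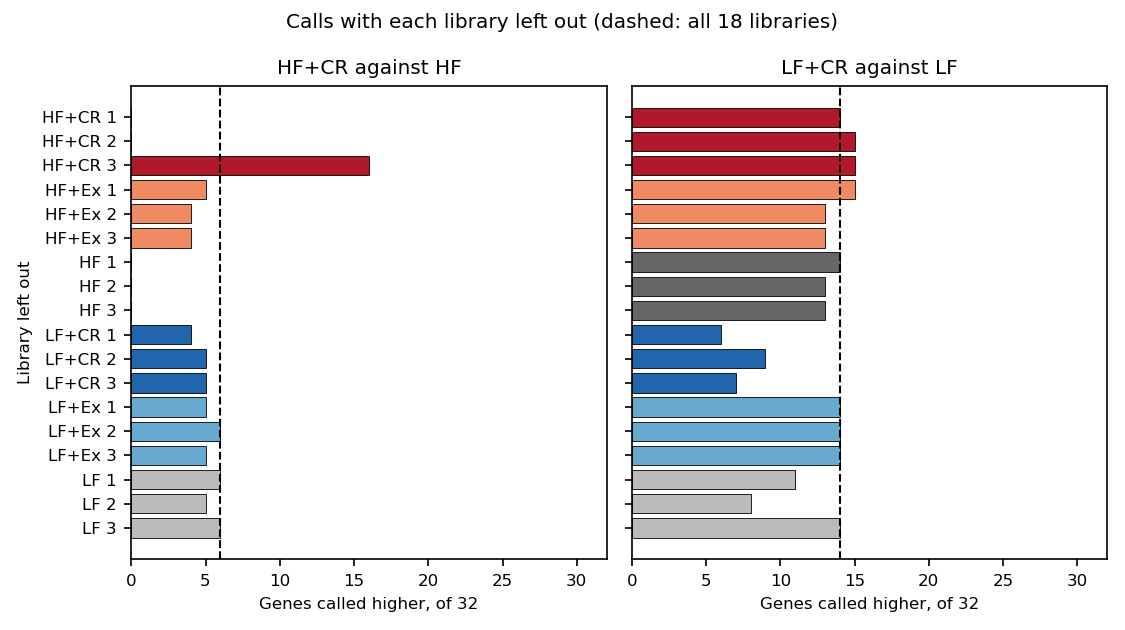
Number of the 32 genes called higher (bars) when the library named on the vertical axis is left out, for HF+CR against HF on the left and LF+CR against LF on the right, with dashed lines at 6 and 14, the counts with all 18 libraries. The left panel has no bar for HF 1, 2 and 3 and for HF+CR 1 and 2, and its longest bar, 16, is for HF+CR 3.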

How the data were processed

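The deposited table holds RPKM values of 30582 RefSeq transcripts in 18 liver libraries. The authors made them with TopHat 1.4.1, Cufflinks 1.3.0 and mm10, per the submitters' processing notes, which state neither settings nor any further normalization. All 550476 values equalled those of the 18 single-library files. RefSeq named 29438 rows and GENCODE 179, and 965 kept their identifier. Several rows were present for 3992 of the 24040 genes, which were then read from the row that averaged highest. Tests covered 10358 genes, those reaching 1 RPKM in 3 or more libraries.

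From the deposited RPKM, log2(RPKM + 1) was fitted with limma 3.58.1 in R 4.3.3 as 1 model of 6 group means (12 residual degrees of freedom, intensity trend, two-sided tests) with 11 contrasts, and p-values were adjusted over all genes tested within each contrast. The fit was tested on simulated data. Levels are means ± SD over 3 libraries. Depth is not given by RPKM; a median of 26.2 M reads was estimated from the spacing of the lowest values, and no counts were recovered, so no count test was run. Every member was to be named, those called by their value in each library of a comparison where they were called and the others by their range in each group. The 32 members, the other lists and the alternatives were chosen with earlier results of these data known. The values of 1 gene called in these other lists are not reported here. Refitting the called genes of these lists without libraries high in pancreatic or bile duct markers was added after seeing the data. Promoter windows came from RefSeq (GRCm38.p6), and none was used for 7 members. Replicate numbers were not used to pair the libraries, except as a block in an alternative fit. Python 3.11.15, pandas 2.3.3 and matplotlib 3.10.9 were also used.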

Additional observations from a re-analysis of the deposited data

How the results depend on the processing

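In the 6 comparisons with members called, the count stayed within 1.5 times the value reported in 124 of 174 alternatives, was larger in 8 and smaller in 42, and no called member changed sign. In the 5 comparisons with none called, 7 of 145 alternatives called a member. Leaving out each library in turn gave 6 to 15 members called in LF+CR against LF, 0 to 16 in HF+CR against HF, 12 to 19 in LF+CR against LF+Ex, 4 to 20 in HF+CR against HF+Ex, 1 to 10 in HF+CR against LF+CR, 0 to 4 in HF+Ex against LF+Ex, 0 to 1 in HF against LF and 0 to 1 in the CR by diet interaction. Without the 3 libraries with pancreatic transcripts the counts were 5 in LF+CR against LF, 0 in HF+CR against HF, 3 in LF+CR against LF+Ex, 1 in HF+CR against HF+Ex, 0 in HF+CR against LF+CR and 0 in HF+Ex against LF+Ex. That alternative leaves 2 libraries in LF+CR, HF+CR and LF+Ex. Without the 2 libraries highest in bile duct markers they were 19 in HF+CR against HF, 22 in HF+CR against HF+Ex, 11 in HF+CR against LF+CR, 4 in HF+Ex against LF+Ex, 1 in HF against LF and 2 in the interaction (Tm7sf2 and Abca1). With no filter on low values, 2 were called in HF+CR against HF, 2 in HF+CR against LF+CR and 0 in HF+Ex against LF+Ex. With only the groups compared in the fit, 1, 0 and 0 were called in HF+CR against HF, against LF+CR and against HF+Ex. A minimum mean of 5 RPKM gave 0 in HF+Ex against LF+Ex and 1 in the interaction (Abca1), and summing the rows of a gene gave 0 in HF+Ex against LF+Ex. Median-of-ratios scaling and quantile normalization each called 1 in HF against LF (Msmo1). The cause of these shifts was not tested.

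The replicate block called 14 in LF+CR against LF, 3 in HF+CR against HF, 17 in LF+CR against LF+Ex, 12 in HF+CR against HF+Ex, 3 in HF+CR against LF+CR and 0 in HF+Ex against LF+Ex, and it changed no other count. The deviations of same-numbered libraries from their group means had a median correlation of 0.004239 over 45 pairs (range -0.490 to 0.313). It was -0.0021 over 90 pairs with different numbers (range -0.388 to 0.435). With 3 libraries a group, these values cannot show whether libraries of the same number were handled together. The 3 libraries with pancreatic transcripts, LF+CR 1, HF+CR 1 and LF+Ex 1, share a replicate number.

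The values are RPKM without counts, 3 libraries a group limit the precision, and genes near 1 RPKM such as Ggps1 carry the least signal over the pseudocount.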

Other observations

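Several members had further RefSeq rows that the values above do not use. The second row of Fdps averaged 14.6 RPKM over the 18 libraries, beside 77.3 RPKM for the row used. Scap had a second row at a mean of 9.95 RPKM, beside 18.8 RPKM. Scarb1 had rows at means of 22.5 and 3.13 RPKM beside 59.0 RPKM, and Insig2 had rows at 3.17 and 2.73 RPKM and 1 listed at 0 in every library, beside 66.3 RPKM. How reads were divided between the transcripts of a gene is not given in the sources used here.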
